A study of Homo sapiens with 4 samples.

Results

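The genes described here are the expressed protein-coding genes of the distal long arm of human chromosome 14, from 75 Mb to the chromosome end (hg38). A gene was included if its deposited start lay at or beyond 75000000, its biotype was protein-coding and its FPKM (fragments scaled for gene length and sequencing depth, the deposited unit) averaged at least 3 over the 4 libraries. The genes FOS, TGFB3, MLH3, HSP90AA1, XRCC3, BAG5 and JAG2 were left out by name. This gave 89 members, of 202 protein-coding genes in the stretch and 58735 genes in the table. Of the 94 protein-coding genes at the FPKM minimum, 5 were among those left out by name. The members were chosen by position and by mean FPKM, and the stretch was proposed with earlier results of the dose comparison in view, so the direction of the stretch as a whole is given as a description with no test.

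RNA was sequenced from cells labelled as a human lung squamous cell carcinoma line, in 2 libraries named for 0 Gy and 2 named for 30 Gy (gray, the unit in which a radiation dose is given). The series' design text names the SK-MES-1 line and a radiotherapy-resistant derivative of it, SK-MES-1-RR, and the labels do not say which library came from which line or whether the dose was given at one time. Nothing says that the 2 libraries of a dose came from separate cultures, and each p-value therefore rests on a spread between libraries that may be technical only. The values are FPKM, from which 15920861 to 17261121 whole reads per library were recovered.

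Distal chromosome 14 carries genes of many unrelated functions. Among them are AKT1, the kinase downstream of PI3K, DICER1, which cuts microRNA precursors, the SERPINA cluster of protease inhibitors, and the imprinted DLK1-MEG3 domain, in which the paternal copy expresses the protein-coding genes and the maternal copy the noncoding RNAs. Beyond them lies the immunoglobulin heavy chain locus. Because the members share a position and not a pathway, the measure of interest is how their levels differed between the doses along the chromosome.

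Of the labelled cell type's markers, KRT5, KRT6A and DSG3 were listed at 0 in the 4 libraries, while the squamous factor TP63 stood at 3.95 and 4.14 FPKM at 0 Gy and at 3.34 and 3.19 at 30 Gy. The simple epithelial keratins were abundant: KRT7 stood at 96.2 and 95.3 at 0 Gy and 221 and 201 at 30 Gy, and KRT19 at 165.2 and 159.2 and at 92.8 and 84.1. The 7 squamous markers summed to 21.8 to 22.5 FPKM at 0 Gy and 18.6 to 20.1 at 30 Gy, most of it PKP1, a desmosomal plaque protein, at 17.6 and 18.3 and at 16.2 and 14.8. PKP1 and TP63 were the 2 that reached 1 FPKM. The 5 simple epithelial markers summed to 332 to 344 and 368 to 402, and the 5 fibroblast markers to 62.8 to 63.2 and 72.4 to 78.6, nearly all of it COL1A1, with DCN at 0. The 4 leukocyte markers summed to at most 0.237 FPKM in any library and the 3 endothelial markers to at most 0.121. The part of the squamous, simple epithelial and fibroblast differences in the results below was not tested.

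Most of the distal chromosome 14 genes had a lower mean level at 30 Gy, most of them by less than 1.5-fold. The ratio of mean FPKM at 30 Gy to that at 0 Gy was below 1 for 76 of the 89 members (85.4%) and above 1 for 13. The median ratio was 0.812, a log2 ratio of -0.30, with the middle 50% of members between -0.44 and -0.13. Over all 8707 expressed protein-coding genes, 49.7% had a ratio below 1 and the median log2 ratio was 0.0027. In bulk RNA, fewer cells of a type and less RNA per cell cannot be told apart. The labels assign no library to SK-MES-1 or SK-MES-1-RR. A difference between those lines therefore cannot be told apart from one of dose.

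The libraries of each dose were close to each other. Expressed as log2 FPKM relative to each gene's mean over the 4 libraries, the median member stood at 0.14 and 0.15 in the 0 Gy libraries and at -0.15 and -0.14 in the 30 Gy libraries. The log2 ratio of the second to the first library, taken over the members, had a median of 0.013 at 0 Gy and -0.021 at 30 Gy. The summed FPKM of the members was 1267 and 1247 at 0 Gy and 1022 and 1011 at 30 Gy. The groups therefore lay apart in this summary by much more than the libraries of a group did.

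Gene by gene, limma on log2(FPKM + 1), adjusted by Benjamini-Hochberg over the 13379 genes tested in the whole table, called 33 members lower and 1 higher at an adjusted p under 0.05. Over all tested genes 9.06% were called lower and 10.8% higher (19.8% in either direction), and over the expressed protein-coding genes 10.7% and 13.4%. At an unadjusted p under 0.05, 51 members were lower and 2 higher, against 37.7% of all tested genes in either direction. Both 30 Gy libraries lay below both 0 Gy libraries for 64 members and above them for 8, against 32.3% and 32.9% of all tested genes; of the expressed protein-coding genes, 33.9% lay below without overlap. At least 1.5-fold by the ratio of means, 13 members were lower and 0 higher, against 4.19% and 6.21% of the expressed protein-coding genes. voom, limma's test for counts, called 51 members lower and 1 higher on the recovered reads (16.3% and 15.3% of all tested genes). All 33 of the first test were among the 51. Without 30 Gy replicate 1 or 2, limma called 11 and 8 members lower and 0 higher. Without 0 Gy replicate 1 or 2 it called 0 members, and 0 of the 13379 genes in all, while 37 and 35 members were lower and 1 higher in each case at an unadjusted p under 0.05.

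**Figure D1:**
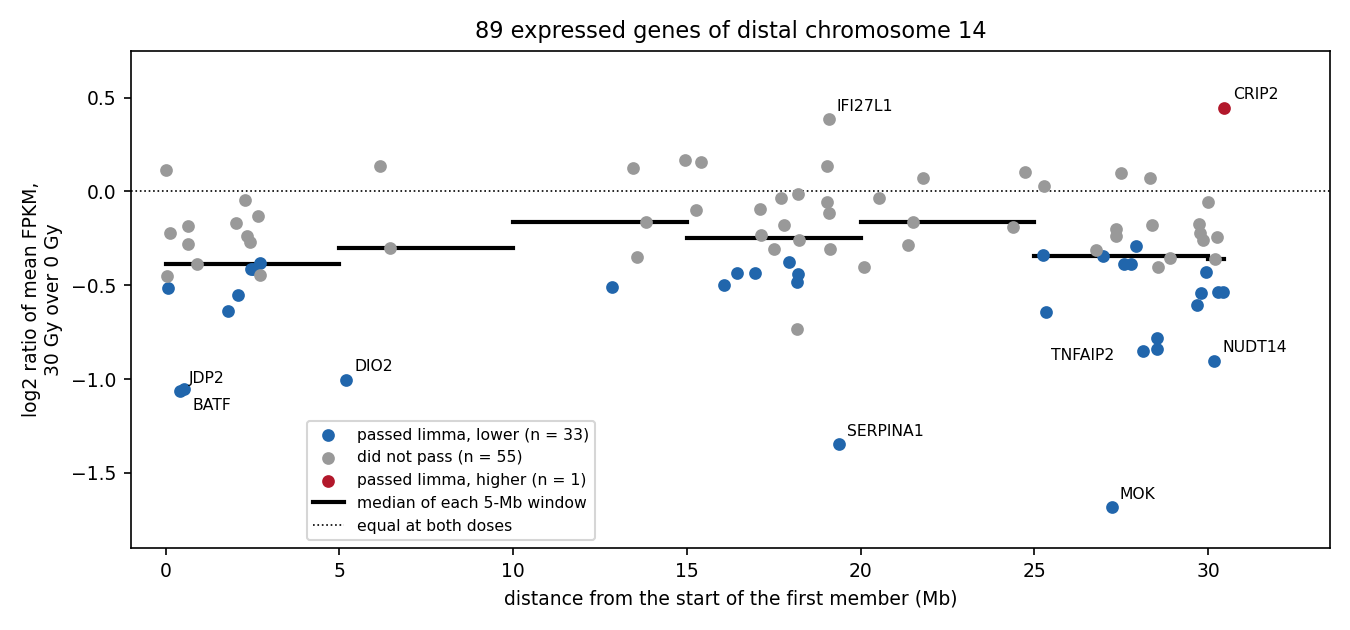
Each point is a member, placed by its distance in Mb from the start of the first member, with the log2 ratio of mean FPKM (30 Gy over 0 Gy) on the vertical axis. Blue marks the 33 members called lower by limma, red the 1 called higher and grey the rest; black bars are the medians of the 5-Mb windows, which all lie below 0.

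Along the chromosome, each of the 7 windows of 5 Mb had a median below 0. From 75 Mb, where 20 members lie, 19 had a ratio below 1 and the median log2 ratio was -0.39. From 80 Mb only 3 members lie, with a median of -0.30, and from 85 Mb only 5, with a median of -0.16. These gene-poor windows rest on too few members to be ranked against the others. From 90 Mb, 19 of 22 members were below 1 with a median of -0.25, and from 95 Mb, 5 of 7 with a median of -0.16. From 100 Mb, 22 of 25 members were below 1 with a median of -0.34, and from 105 Mb to the last member, 6 of 7 with a median of -0.36. limma called 8, 1, 1, 7, 0, 13 and 3 members lower in these windows in order. The window from 95 Mb was the one without a call in limma, while voom called 3 of its 7 members lower. The only call in the other direction lay in the last window.

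The libraries kept their order by dose in every window. In the window from 90 Mb the relative log2 level of the median member was 0.13 in each 0 Gy library and -0.12 in each 30 Gy library. The window from 85 Mb had the narrowest gap between doses, with 0.0035 in 0 Gy replicate 2 and -0.036 in 30 Gy replicate 2. In the last window the 30 Gy libraries stood apart from each other, at -0.054 and -0.23. Without 30 Gy replicate 2 its median log2 ratio was -0.24, and without 30 Gy replicate 1 it was -0.49. In the window from 85 Mb the median was -0.083 without 0 Gy replicate 1, and in the window from 80 Mb it was -0.20 without 0 Gy replicate 2.

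**Figure D2:**
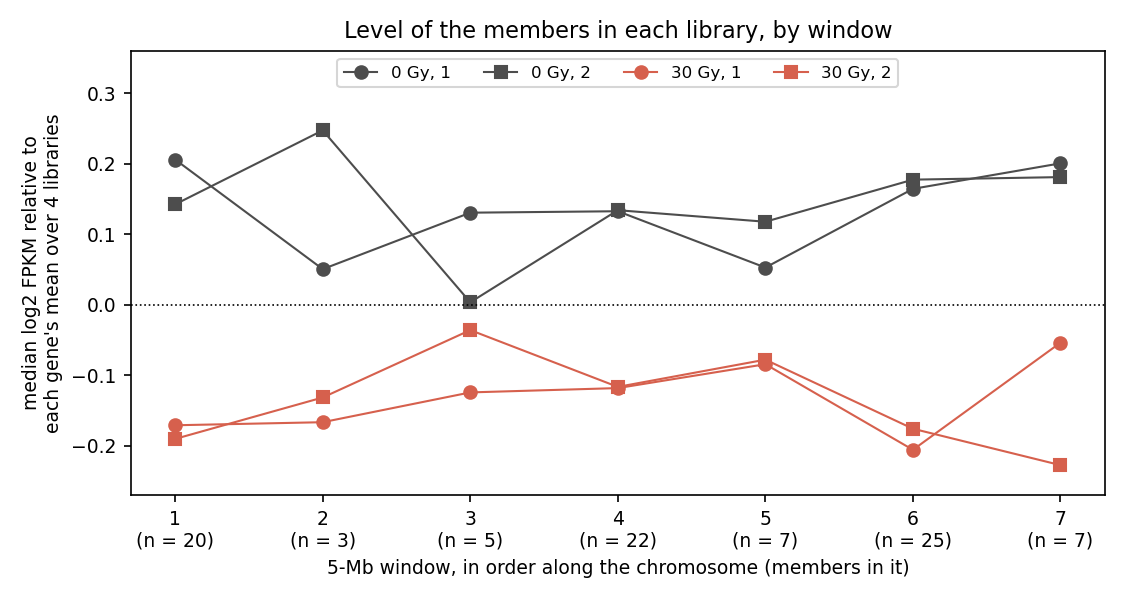
For each 5-Mb window in order along the chromosome (horizontal axis, with the number of members), the vertical axis gives the median over its members of log2 FPKM relative to each gene's mean over the 4 libraries. Grey marks are the 0 Gy libraries and red marks the 30 Gy libraries; in all 7 windows both grey marks lie above 0 and both red marks below it.

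Within the stretch, the ratio of a member was a poor guide to that of its neighbour. Across the 88 pairs of neighbouring members the log2 ratios had a Pearson's r of 0.035 and a Spearman's rho of 0.026, given as a description because neighbours share libraries. Over 8665 neighbouring pairs of expressed protein-coding genes on all chromosomes the values were 0.21 and 0.24. Those pairs span chromosomes whose median log2 ratios ran from -0.24 to 0.20, a difference that pairs within the stretch cannot hold. The values of the stretch and of all chromosomes are therefore not like for like. The median difference between neighbours was 0.287 on the log2 scale, about as large as the median log2 ratio of the members. Both members were below 1 in 64 of the 88 pairs, and the longest unbroken run of ratios below 1 held 20 members, from ACYP1 to DIO2. Across the 89 members the log2 ratio had an r of 0.019 with position, 0.027 with log2 mean FPKM and 0.060 with log2 exon length, again as a description.

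The 2 last members by position passed in opposite directions. MTA1, a subunit of the NuRD chromatin remodelling complex at 14:105419820-105470729, fell, and CRIP2, a LIM-domain protein whose deposited start lies 2232 bases beyond, at 14:105472962-105480170, rose. MTA1 stood at 22.9 and 23.3 FPKM at 0 Gy and 16.1 and 15.8 at 30 Gy. CRIP2 stood at 6.498 and 6.14 at 0 Gy and 8.79 and 8.43 at 30 Gy. In both genes the groups did not overlap. The log2 changes on the log2(FPKM + 1) scale of limma were -0.51 ± 0.06 for MTA1 (SE, adjusted p = 0.00899) and 0.39 ± 0.07 for CRIP2 (SE, adjusted p = 0.0245). CRIP2 missed the threshold without any 1 of the libraries, with limma's adjusted p from 0.0766 to 0.147.

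At least 2-fold lower by the ratio of means were MOK, SERPINA1, JDP2, BATF and DIO2. MOK, a serine/threonine kinase of the MAP kinase superfamily at 14:102224500-102305200 (minus strand), stood at 6.53 and 6.07 FPKM at 0 Gy and 2.06 and 1.87 at 30 Gy. Its fall of 3.21-fold was the largest among the members (log2 change -1.30 ± 0.09, SE, limma adjusted p = 0.00294). SERPINA1, alpha-1 antitrypsin, the inhibitor of neutrophil elastase, at 14:94376747-94390693, stood at 24.0 and 23.2 at 0 Gy and 8.87 and 9.67 at 30 Gy. It fell 2.55-fold (log2 change -1.26 ± 0.07, SE, limma adjusted p = 0.00189). DIO2, the type 2 deiodinase that activates thyroid hormone, at 14:80197527-80387757, fell from 16.6 and 15.9 to 8.09 and 8.14 (limma adjusted p = 0.00307). In each of these genes both 30 Gy libraries lay far below the lower 0 Gy library.

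JDP2 and BATF, 48313 bases apart at 14:75427716-75474111 and 14:75522425-75547015, both encode basic leucine zipper proteins that dimerize with JUN proteins. JDP2 stood at 5.68 and 4.28 FPKM at 0 Gy and 2.51 and 2.25 at 30 Gy. BATF stood at 12.4 and 10.3 at 0 Gy and 6.26 and 4.68 at 30 Gy. The ratios were nearly the same, 2.09-fold and 2.07-fold lower (limma adjusted p = 0.0212 and 0.0185). The replicates spread more widely here than in MOK or SERPINA1, and the groups still did not overlap. The nearest members on either side, TMED10 and TTLL5, had log2 ratios of -0.22 and -0.18 and did not pass.

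To show the regulatory sequence before the starts of the members with the largest fall and of the member that rose, the 150 bases upstream of the RefSeq start (GRCh38.p14) are given 5′ to 3′ on the gene's strand, with capitals marking a GC box (GGGCGG, or CCGCCC on the other strand). DIO2 is not shown because its RefSeq start lies far inside the deposited gene. The windows are chr14:102305165-102305314 (minus strand) for MOK, chr14:94390636-94390785 (minus) for SERPINA1, chr14:75427574-75427723 (plus) for JDP2, chr14:75522319-75522468 (plus) for BATF and chr14:105472795-105472944 (plus) for CRIP2. The start in use in these cells was not measured.
MOK: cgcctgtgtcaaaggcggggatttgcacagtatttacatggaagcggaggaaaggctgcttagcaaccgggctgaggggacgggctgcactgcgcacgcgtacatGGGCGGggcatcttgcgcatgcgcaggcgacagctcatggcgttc
SERPINA1: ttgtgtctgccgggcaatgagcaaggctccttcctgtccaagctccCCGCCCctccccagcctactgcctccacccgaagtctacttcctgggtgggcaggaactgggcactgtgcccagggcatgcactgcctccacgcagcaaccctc
JDP2: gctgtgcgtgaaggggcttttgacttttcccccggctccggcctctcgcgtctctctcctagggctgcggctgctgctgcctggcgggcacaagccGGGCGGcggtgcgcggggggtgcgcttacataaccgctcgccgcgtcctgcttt
BATF: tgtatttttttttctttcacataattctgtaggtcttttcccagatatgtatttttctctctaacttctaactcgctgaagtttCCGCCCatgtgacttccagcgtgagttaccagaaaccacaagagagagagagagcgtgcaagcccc
CRIP2: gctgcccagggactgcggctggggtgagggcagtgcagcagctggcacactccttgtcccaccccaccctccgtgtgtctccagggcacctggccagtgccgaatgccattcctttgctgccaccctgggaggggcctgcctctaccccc
A GC box was present in the windows of MOK, SERPINA1, JDP2 and BATF and in neither that of CRIP2 nor that of DIO2; of all members matched, 75.6% had one. G and C made up 62.0% of the window in MOK, 64.7% in SERPINA1, 69.3% in JDP2, 42.0% in BATF and 68.7% in CRIP2.

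The same 150 bases were searched on both strands in the 82 members that matched a RefSeq promoter, 4 of them through a newer symbol. The GC box was in 62 of the 82 (75.6%), against 63.1% of 7146 other expressed protein-coding genes and 36.7% of all 27305 promoters in the table. The core of the antioxidant response element (TGACNNNGC) was in 11 (13.4%), against 8.27% and 7.39%. The CCAAT box (CCAAT) was in 24 (29.3%), against 27.8% and 24.4%, and the TATA box (TATAAA) in 2 (2.44%), against 2.72% and 7.05%. An AP-1 site (TGANTCA) was in 1 (1.22%), against 2.16% and 4.14%. Of the 31 matched members that limma called lower, 26 had the GC box, 6 the antioxidant response element core, 6 the CCAAT box, 1 the TATA box and 0 the AP-1 site. Such matches describe the letters of these windows only.

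Among transcription and chromatin genes 8 of 12 members fell, 0 rose and 4 did not pass, with a median log2 ratio of -0.39. Besides JDP2, BATF and MTA1, SNW1, a transcriptional coactivator that is also a splicing factor, fell from 44.3 and 44.1 FPKM to 34.2 and 33.6 (limma adjusted p = 0.0155). YY1, a zinc finger factor that can activate or repress, fell from 22.6 and 23.6 to 17.7 and 18.8 (limma adjusted p = 0.0315). CIPC, which inhibits the CLOCK-BMAL1 complex, the CoREST corepressor RCOR1 and the zinc finger protein ZBTB42 fell too, by 0.44, 0.34 and 0.41 on the log2(FPKM + 1) scale. IRF2BPL, CDCA4, BRF1 and the basal factor subunit GTF2A1 did not pass, and GTF2A1 had a ratio above 1.

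Among kinase, phosphatase and death signalling genes 7 of 13 fell, 0 rose and 6 did not pass, with a median log2 ratio of -0.37. After MOK, the largest was TNFAIP2, a protein induced by TNF, at 30.4 and 28.4 FPKM at 0 Gy and 16.7 and 15.8 at 30 Gy (1.805-fold lower, limma adjusted p = 0.00449). NEK9, a kinase that acts in mitosis, stood at 12.8 in each 0 Gy library and at 9.04 and 8.97 at 30 Gy (limma adjusted p = 0.0121). MOAP1, which binds the death effector BAX, fell from 8.97 and 8.72 to 6.10 and 6.57. PPP4R3A, a regulatory subunit of protein phosphatase 4, the inositol phosphate kinase ITPK1 and the TNF receptor adaptor TRAF3 completed the falls, each 1.30-fold to 1.35-fold.

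AKT1 stood at 19.99 and 20.6 FPKM at 0 Gy and at 17.8 and 17.0 at 30 Gy, groups that did not overlap, and did not pass in limma (adjusted p = 0.0765). The voom test called it lower (adjusted p = 0.0152). The chromatin kinase VRK1 had a ratio above 1 and did not pass. PPP2R5C, SIVA1 and GSKIP had ratios below 1 and did not pass.

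Among RNA processing and translation genes 4 of 12 fell, 0 rose and 8 did not pass, with a median log2 ratio of -0.38. TRMT61A, the catalytic subunit of an m1A methyltransferase of tRNA, stood at 9.54 and 8.69 FPKM at 0 Gy and 5.76 and 4.44 at 30 Gy (1.79-fold lower, limma adjusted p = 0.0213). WARS, the cytosolic tryptophanyl-tRNA synthetase, fell from 25.3 and 25.97 to 16.6 and 16.2 (limma adjusted p = 0.00613). ANGEL1 fell from 4.70 and 4.81 to 3.22 and 2.90, and GON7, of the KEOPS complex that modifies tRNA, from 13.8 and 15.4 to 10.8 in each library.

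The translation initiation factor EIF5 was among the most abundant members and had a ratio near 1. It stood at 36.3 and 36.8 FPKM at 0 Gy and 39.5 and 37.3 at 30 Gy (limma adjusted p = 0.465). EIF2B2, the first member of the stretch by position, a subunit of the exchange factor for eIF2, stood at 6.36 and 6.14 at 0 Gy and 6.59 and 6.93 at 30 Gy and did not pass. DICER1 stood at 8.68 and 10.4 at 0 Gy and 7.03 and 7.42 at 30 Gy (limma adjusted p = 0.0702, voom adjusted p = 0.00277). The 0 Gy libraries of DICER1 differed from each other more than the 30 Gy libraries did.

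Among mitochondrial and metabolic genes 4 of 10 fell, 0 rose and 6 did not pass, with a median log2 ratio of -0.41. NUDT14, a hydrolase of UDP-sugars, stood at 13.1 and 10.7 FPKM at 0 Gy and 5.98 and 6.73 at 30 Gy (1.87-fold lower, limma adjusted p = 0.0144). CKB, the brain-type creatine kinase, fell from 17.3 and 16.9 to 9.60 and 10.3 (limma adjusted p = 0.00582). DGLUCY fell from 4.68 and 4.87 to 3.41 and 3.35. SPTLC2, a subunit of the enzyme that starts sphingolipid synthesis, fell from 6.09 and 6.79 to 4.71 and 4.97 (limma adjusted p = 0.0483). Among settings that keep all libraries, SPTLC2 missed the threshold of limma with equal sums (0.0561), a replicate block (0.0612), no trend (0.0629) and no filter (0.137). Its log2 change was -0.42 to -0.28 without 1 library.

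In this list ATP5MPL and NDUFB1, small proteins of ATP synthase and of complex I, differed as much within doses as between them. NDUFB1 stood at 7.26 and 4.39 FPKM at 0 Gy and at 4.21 and 6.72 at 30 Gy. ATP5MPL stood at 17.7 and 11.7 at 0 Gy and at 10.02 and 12.96 at 30 Gy. SLIRP, a mitochondrial RNA-binding protein of the translation list, had the same order of libraries, at 14.6 and 8.30 at 0 Gy and 7.14 and 9.68 at 30 Gy. In all 3 genes the groups overlapped. Over the 89 members the log2 ratio of the second to the first 0 Gy library went with log2 exon length (Pearson's r = 0.36, Spearman's rho = 0.37), and that of the 30 Gy libraries less so (0.13 and 0.16); these are descriptions across genes of shared libraries. The 19 members with under 3000 exon bases had a median log2 ratio of -0.38 and the 70 longer ones of -0.29.

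Among cytoskeletal genes 4 of 9 fell, 0 rose and 5 did not pass, with a median log2 ratio of -0.26. INF2, a formin that assembles and severs actin filaments, stood at 29.5 and 29.4 FPKM at 0 Gy and 20.4 and 18.3 at 30 Gy (1.52-fold lower, limma adjusted p = 0.0106). AHNAK2, a giant scaffold protein, fell from 25.3 and 27.1 to 19.6 and 19.4 (limma adjusted p = 0.0181). DYNC1H1, the heavy chain of cytoplasmic dynein, fell from 21.2 and 23.7 to 18.2 and 17.2 (limma adjusted p = 0.0493). It missed the threshold with a pseudocount of 0.1 (0.0515), quantile normalization (0.0554), equal sums (0.0638), no trend (0.0799), a replicate block (0.0805), no filter (0.138) and without any 1 library (0.108 to 0.201). CDC42BPB, a kinase downstream of CDC42, fell from 23.1 and 24.2 to 19.1 and 19.5 (limma adjusted p = 0.0393). Among settings that keep all libraries, CDC42BPB missed the threshold of limma with equal sums (0.0515), a replicate block (0.0599), no trend (0.0718) and no filter (0.0856). Its log2 change was -0.31 to -0.24 without 1 library. EML1 and PTPN21 had ratios above 1 with overlapping groups.

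Among vesicle, Golgi, lysosome and cilium genes the ratio was below 1 for all 12 members, of which 3 passed. PACS2, a sorting protein at contacts of the endoplasmic reticulum and mitochondria, fell from 7.16 and 7.55 FPKM to 4.88 and 5.24 (limma adjusted p = 0.0197). GALC, the lysosomal galactosylceramidase, fell from 6.68 and 7.60 to 4.97 and 5.06, and TRIP11, a golgin, from 8.90 and 9.69 to 6.44 and 7.33. TMED10, a cargo receptor of the early secretory pathway and the member with the second highest mean FPKM, stood at 57.5 and 60.8 at 0 Gy and 49.5 and 52.1 at 30 Gy and did not pass (limma adjusted p = 0.0756). IFT43, of the intraflagellar transport complex, stood at 6.90 and 5.99 and at 5.03 and 4.82 and did not pass.

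Among protein quality control genes 1 of 6 fell and 0 rose. AHSA1, the co-chaperone that activates the ATPase of HSP90 and the most abundant member, stood at 67.6 and 59.4 FPKM at 0 Gy and 46.8 and 48.5 at 30 Gy (limma adjusted p = 0.0308). AHSA1 missed the threshold of limma with a replicate block (0.0551), no trend (0.0568) and no filter (0.115). Its log2 change in limma was -0.50 to -0.31 without 1 library. SEL1L, an adaptor of ER-associated degradation, stood at 16.3 and 18.7 and at 14.04 and 14.4 (limma adjusted p = 0.0777). The ubiquitin-related genes BTBD6, UBR7 and OTUB2 and the proteasome ATPase PSMC1 did not pass, and OTUB2 had a ratio above 1. DNA repair and replication genes gave 0 calls among 3 members in limma, also at an unadjusted p under 0.05, and 0 in voom. TDP1, which removes trapped topoisomerase I from DNA, stood at 3.57 and 3.39 at 0 Gy and at 3.93 and 3.88 at 30 Gy, and ALKBH1 and CINP had ratios below 1. The log2 change of ALKBH1 in limma, -0.10, was 0.026 without 0 Gy replicate 1.

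The 3 members of the interferon-induced list, IFI27L1, IFI27 and IFI27L2, lie next to each other. Induction by interferon was not measured here. IFI27L1 stood at 3.86 and 4.03 FPKM at 0 Gy and 5.55 and 4.75 at 30 Gy (limma adjusted p = 0.0817). IFI27 stood at 27.9 and 23.9 and at 24.8 and 23.1, with overlapping groups, and its limma log2 change of -0.11 was 0.0011 without 0 Gy replicate 1. IFI27L2 stood at 30.9 and 23.1 and at 22.9 and 20.7 (limma adjusted p = 0.230). None of the 3 passed in limma or voom, and IFI27L1 alone had an unadjusted p under 0.05. The genes are related in sequence, so the split of reads between them is uncertain.

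Outside the lists, 8 members were left, of which DIO2 fell and CRIP2 rose. TMEM251 had the largest fold lower among the 55 members that did not pass, at 8.63 and 12.3 FPKM at 0 Gy and 7.20 and 5.39 at 30 Gy (1.66-fold lower, limma adjusted p = 0.0811). ERG28, which acts in sterol synthesis, POMT2, an O-mannosyltransferase, SETD3, an actin histidine methyltransferase, BTBD7 and ANKRD9 did not pass, and ANKRD9 had a ratio above 1. In all, 43 members had a ratio below 1 and 12 a ratio above 1 without passing in limma.

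**Figure D3:**
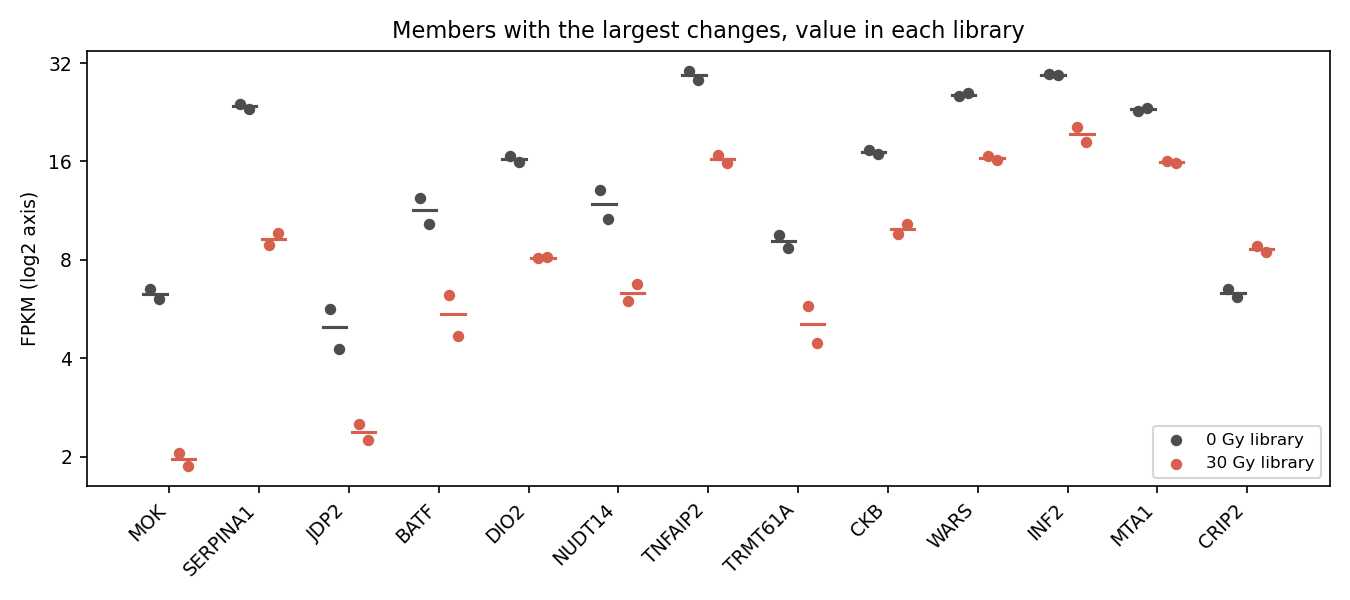
FPKM (log2 axis) of the 12 members with the largest falls by the log2 change of limma, among those that passed, and of CRIP2, the member that rose, in each library. Grey points are the 0 Gy libraries, red points the 30 Gy libraries and short bars their means; in each of the 13 genes the points of the 2 doses do not overlap.

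At the FPKM minimum, the members just inside were TTLL5 (mean 3.08 FPKM), BRF1 (3.16) and ZBTB42 (3.28), and the genes just outside were ZNF839 (2.93), GPATCH2L (2.90) and WDR20 (2.80). All 6 had a lower mean at 30 Gy than at 0 Gy. The 29 protein-coding genes of the stretch with a mean of 1 to 3 FPKM, apart from those left out by name, had a median log2 ratio of -0.22, and 26 had a ratio below 1. limma called 3 of them lower (10.3%) and 0 higher. That share was near the 9.06% called lower over all tested genes and the 10.7% over the expressed protein-coding genes. By the ratio of means, the direction of most genes was the same below the minimum.

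Few genes of the same stretch outside the protein-coding biotype reached the FPKM minimum. Of the 5 with a mean of at least 3 FPKM, 3 had a ratio below 1. RPL3P4 and ENSAP2, among the 5, are processed pseudogenes. The lincRNA AL132712.2, named after its values were seen, rose from 1.81 and 2.32 FPKM to 7.40 and 7.42 (limma adjusted p = 0.00349), a call that voom on the recovered reads did not make (adjusted p = 0.0833) and that limma lost without 0 Gy replicate 1 (adjusted p = 0.0760) or 2 (0.0696). The values of AL132712.2 rest on few recovered reads, 4 and 5 at 0 Gy and 15 in each 30 Gy library. In the imprinted domain DLK1 and DIO3 were listed at 0 in the 4 libraries. MEG3, its maternally expressed noncoding RNA, stood at 1.38 and 1.21 at 0 Gy and 2.21 and 2.17 at 30 Gy, and passed narrowly (limma adjusted p = 0.0494; voom adjusted p = 5.6e-05). Without 1 library its adjusted p in limma was 0.130 to 0.183, and it also missed the threshold with no filter (0.155), equal sums (0.0608), median centring (0.0543) and a replicate block (0.0825).

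The rest of chromosome 14 was measured in the same libraries. Among the 183 expressed protein-coding genes before 75 Mb, 132 had a ratio below 1 and the median log2 ratio was -0.17. Of these 183, limma called 30 lower (16.4%) and 10 higher (5.46%), against 10.7% and 13.4% of all expressed protein-coding genes. With a split at 30 Mb chosen after the values were seen, the 49 genes before 30 Mb had a median of 0.0036 with 24 ratios below 1, and the 134 genes from 30 to 75 Mb a median of -0.24 with 108 below 1. In 10-Mb windows from 30 Mb to 75 Mb the medians ran from -0.29 to -0.18. Ratios below 1 were thus in the majority on both sides of 75 Mb, down to 30 Mb. The difference between the 2 stretches was not tested.

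Among 23 chromosomes, chromosome 14 had the second lowest median log2 ratio of its expressed protein-coding genes, at -0.22, after chromosome 18 at -0.24. Chromosome X followed at -0.18. The highest median was that of chromosome 20, at 0.20. Since each chromosome is a single set of genes in the same 4 libraries, this order is a description.

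**Figure D4:**
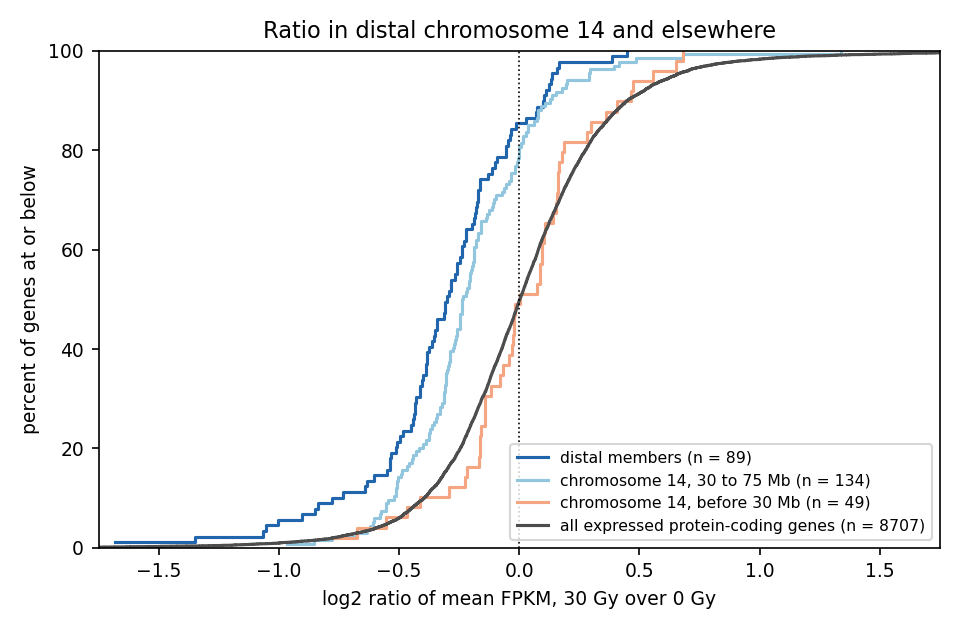
Cumulative percent of genes (vertical axis) by log2 ratio of mean FPKM, 30 Gy over 0 Gy (horizontal axis), for the 89 distal members, the 134 expressed protein-coding genes of chromosome 14 from 30 to 75 Mb, the 49 before 30 Mb and all 8707. The curve of the distal members lies to the left of that of all genes, and the curve of the 49 genes crosses 50% near 0.

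Reads of overlapping genes may be shared between them. In GENCODE v29, whose coordinates and exon lengths matched the deposited ones for all 89 members, 44 members share exon bases with a gene on the opposite strand, and the counting is not stated to use strand. More than 10% of the exon bases were shared with another gene in 17 members, whose median log2 ratio was -0.20 with 2 calls lower (11.8%). The other 72 had a median of -0.31, with 31 calls lower (43.1%) and 1 higher (1.39%). Over all expressed protein-coding genes 10.7% were called lower and 13.4% higher, so the rate of lower calls in the 17 was near that of all. The largest share was that of PSMC1, of whose exon bases 75.8% overlap NRDE2 on the opposite strand, and its value is uncertain for that reason. On the plus strand 37 of 46 members had a ratio below 1, and on the minus strand 39 of 43.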

How the data were processed

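The authors deposited 1 table of FPKM values for 58735 genes in 4 libraries. Per the submitters' processing notes the build is hg38. The aligner and the counter are not named in the sources used here, nor is the use of strand. Within each library, FPKM multiplied by gene length gave whole reads for 100% of the values above 0 (tolerance 0.001), and these reads served an alternative test. Depth speaks to counting error only.

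Libraries were grouped by the dose in their names. limma 3.58.1 (R 4.3.3; two-sided, moderated with a mean trend) compared the doses on log2(FPKM + 1) for the 13379 genes that reached FPKM 1 in 2 or more libraries, adjusted by Benjamini-Hochberg (threshold 0.05), with 2 residual and 2.98 prior degrees of freedom. Fold changes from limma understate the change of low genes; ratios are of mean FPKM with no pseudocount. Permuting 2 against 2 libraries could not pass the threshold. The fit was also run on simulated counts in which every gene had the same spread setting, unlike members whose libraries differed widely within a dose. No support for the calls is drawn from it.

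The members, gene lists and tests were chosen with earlier results of these data known. Named genes were the 12 largest rises and falls among members that passed without overlap, up to 4 per list by adjusted p, the 4 most abundant, the first and last member, and the 3 genes on each side of the FPKM minimum. Other members complete a list's count or, like YY1, AKT1, DICER1, SLIRP, NDUFB1, ATP5MPL and TMEM251, were chosen after their values were seen; 1 member is counted but not reported by name here. Alternatives were other pseudocounts, filters, scalings, variance models and FPKM minimums, voom on the reads, a replicate block, and leaving out single libraries. Promoters came from RefSeq (GRCh38.p14).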

Additional observations from a re-analysis of the deposited data

How the results depend on the processing

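None of the counts or medians below changed direction; of the members named by the rule, ALKBH1 and IFI27 did without 0 Gy replicate 1 (log2 changes 0.026 and 0.0011), and neither passed in any setting. The 33 members called lower became 32 with a pseudocount of 0.1 or quantile normalization and 33 with median centring or robust eBayes. With a filter at FPKM 5, 34 of the 71 members tested were called lower, 28 of them among the 33. Under that filter 15.6% of all tested genes were called lower, against 9.06% in the main test. The 33 became 29 with equal sums and 23 with eBayes without trend. They became 9 with no filter on low values, 17 of 40 with a member minimum of FPKM 10 and 51 with voom, and 0 to 11 when 1 library was left out, where a lone library is assumed to vary like the other group. The 1 member called higher became 0 with no filter, with a minimum of FPKM 10 and without any 1 library; at an unadjusted p under 0.05 limma without the filter had 2. With no filter far more genes enter the adjustment, and 0.82% of all tested genes were called lower and 1.15% higher. The median log2 ratio of the members (-0.30, replicate spread 0.0096) was -0.33 with equal sums, -0.32 with median centring, -0.31 with quantile normalization and with voom, -0.27 with a pseudocount of 1, -0.28 with a minimum of FPKM 1, -0.29 over the members of 3000 or more exon bases, and -0.30 to -0.29 without 1 library; the pseudocount of 1 and the length limit were chosen after seeing the data.

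By window, the median from 75 Mb was -0.33 with a minimum of FPKM 10, and -0.38 to -0.28 without 1 library. From 80 Mb it was -0.082 with a minimum of FPKM 1 and -0.65 with one of FPKM 10, over few genes, and -0.40 to -0.20 without 1 library. From 85 Mb it was -0.24 to -0.083 without 1 library, and no member reached FPKM 10, so that minimum gave no value there. From 90 Mb, where the spread was 0.0016, it was -0.27 with equal sums, -0.26 with median centring, quantile normalization and voom, -0.24 with a pseudocount of 0.1, -0.21 with one of 1, -0.23 with a minimum of FPKM 1, -0.11 with one of FPKM 10, and -0.29 to -0.22 without 1 library. From 95 Mb it was -0.20 to -0.14 without 1 library. From 100 Mb it was -0.37 with equal sums and -0.38 to -0.32 without 1 library. From 105 Mb it was -0.49 to -0.24 without 1 library. The cause of these moves was not tested.

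With a replicate block the count of members called lower was 23 and of those called higher 1. The libraries share only a number: the replicate differences of the doses had a correlation of -0.026 over 13379 genes, so the block is not used.

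Depth was alike in the 4 libraries, and with 2 libraries per dose the spread within a dose is poorly known.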
